A study of Homo sapiens with 6 samples.

Results

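A set of 8 genes of the short arm of chromosome 17, band 17p13, was examined in KLE cells that had lost the kinases LATS1 and LATS2: *CAMKK1*, *ENO3*, *SPAG7*, *TXNDC17*, *RNASEK*, *ACADVL*, *GABARAP* and *EIF5A*. They are 8 of the 414 genes in the deposited table and were selected on the measured values themselves, because their read counts were lower in LATS1/2-KO cells than in parental cells. That lower level is therefore a description of the selection, and no p-value is attached to it. The sizes of the difference, its spread over genes and libraries, and the position and sequence of the genes are described here, with the size set beside the arithmetic of losing 1 gene copy.

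KLE is an established human endometrial carcinoma cell line. The study sequenced 3 libraries of parental cells (genotype WT) and 3 libraries of LATS1/2 double-knockout cells, named LATS1/2-KO here, to find the genes that change when this Hippo pathway kinase pair is lost. The knockout cells were made with pX459, a plasmid that carries Cas9 and a guide, followed by puromycin selection and growth from single cells by limiting dilution. How many clones stand behind the 3 knockout libraries is not given in the sources used here, so a change that one founder cell carried by chance and a change that follows from losing the kinases cannot be told apart. The deposited table holds only genes that the authors had called as changed more than 2-fold, and LATS1 and LATS2 themselves are not among them, so the knockout was not checked here by its targets. Replicate numbers of the knockout columns (5, 6 and 7) match no sample label, and these libraries are called LATS1/2-KO libraries 5, 6 and 7. Nothing in the labels says that the libraries came from separate cultures, so the spread between them may be technical.

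Losing a stretch of a chromosome removes 1 copy of every gene on it, and the RNA of many such genes drops roughly in proportion to the copies left, although feedback on transcription or RNA stability can make single genes depart from that proportion. A change in a signalling pathway usually acts on genes through their promoters and enhancers. Which of these applies to the 8 genes was not tested. The 8 genes are known from different processes, and whether they share a pathway or a regulator was not tested. ENO3 and ACADVL are enzymes of energy metabolism, EIF5A is a translation factor, TXNDC17 reduces protein disulfides, GABARAP and RNASEK belong to autophagy and to endosome acidification, CAMKK1 is a calcium-dependent kinase, and SPAG7 is a nuclear protein with a predicted nucleic acid-binding domain. Several are expressed in most tissues, but *ENO3* encodes the enolase best known from muscle and CAMKK1 is best known from brain, and breadth of expression cannot be read from a single cell line.

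In GENCODE version 29 (GRCh38) the 8 genes lie between bases 3860315 and 7312463 of chromosome 17, a stretch of 3.45 Mb, 5 on the plus strand and 3 on the minus strand. RefSeq promoter windows of 250 bases before each start (GRCh38.p14) were at hand for 7 of the 8 genes, with 15 starts in all, and not for *RNASEK*. The genes with a single start are printed 5′ to 3′ on the strand of the gene, as the upstream sequence of genes selected for the same direction of difference. How alike the promoters are was not tested. Capitals mark matches to the searched motifs on either strand.

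SPAG7, chr17:4967818-4968067, minus strand: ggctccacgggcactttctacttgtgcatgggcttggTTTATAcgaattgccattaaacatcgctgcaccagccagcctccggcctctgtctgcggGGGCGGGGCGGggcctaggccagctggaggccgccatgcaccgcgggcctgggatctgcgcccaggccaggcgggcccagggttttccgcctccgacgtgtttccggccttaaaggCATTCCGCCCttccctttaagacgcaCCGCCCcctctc

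TXNDC17, chr17:6640810-6641059, plus strand: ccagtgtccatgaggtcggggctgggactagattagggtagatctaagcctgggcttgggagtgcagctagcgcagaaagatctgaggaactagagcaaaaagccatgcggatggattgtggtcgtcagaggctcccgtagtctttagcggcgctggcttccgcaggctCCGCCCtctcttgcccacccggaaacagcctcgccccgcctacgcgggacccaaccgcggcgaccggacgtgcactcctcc

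GABARAP, chr17:7242450-7242699, minus strand: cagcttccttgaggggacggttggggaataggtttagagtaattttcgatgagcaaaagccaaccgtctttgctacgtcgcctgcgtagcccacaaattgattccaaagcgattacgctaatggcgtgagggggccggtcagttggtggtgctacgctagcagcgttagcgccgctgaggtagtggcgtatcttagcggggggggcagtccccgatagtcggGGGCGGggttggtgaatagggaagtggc

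The capitals in *SPAG7* are GGGCGG or its reverse complement CCGCCC at 4 places, TATAAA as its reverse complement TTTATA, and GGAATG as its reverse complement CATTCC. The CATTCC and the CCGCCC beside it share bases, and the first 2 of the GGGCGG matches share a base. The windows of *TXNDC17* and *GABARAP* each held 1 match to the first of these motifs. This motif, GGGCGG or the core letters of the GC box, was found in 8 of the 15 start windows, from 6 of the 7 genes, and in 42.6% of the windows of all 35116 RefSeq starts. CCAAT was found in 5 windows (3 genes) against 32.0% of all, TATAAA in 2 windows (2 genes) against 10.7%, and CCGGAAG, the core letters of ETS sites, in 2 windows (2 genes) against 8.5%. GGAATG, the letters that TEAD factors of the Hippo pathway bind, occurred in 1 window, that of *SPAG7*, against 11.9% of all. TTCNNNGAA, the letters of STAT sites, occurred in 0 of 15 windows against 6.6%. Only GGGCGG was therefore held by most of the genes, and it is common in promoters at large. Starts of one gene lie close together and share sequence, so the 15 windows are not independent. Median GC content was 61.2% in these windows and 58.0% over all starts.

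Reads counted over the listed genes summed to between 3008692 and 4064052 in the parental libraries and between 613161 and 1862422 in the LATS1/2-KO libraries. These are sums over called genes and not library totals, so the full depth is unknown, and LATS1/2-KO library 6 carries the largest counting error. Counts were divided by a scale per library, so that a scaled count is on the depth of the average parental library. Parental replicate 1 often differed from the other parental libraries. Among the 323 listed genes that reached 50 counts in any parental library, 128 (39.6%) were over 1.5-fold higher in it than the mean of parental replicates 2 and 3, and 31 were over 1.5-fold lower. Among the 8 genes it was over 1.5-fold higher for 4 and over 1.5-fold lower for 1. The fold changes of the 8 genes are therefore given with all 6 libraries and without parental replicate 1. Parental replicates 2 and 3 also differed from each other by more than sampling noise. Their chi-square per degree of freedom over the listed genes was 1049.89, beside 870.6 for replicates 1 and 2 and 2036.94 for replicates 1 and 3. The share of genes over 1.5-fold apart was not computed for replicate 2 or replicate 3, so replicate 1 is not shown to be a single outlying library. Of the marker lists for other cells that a culture could hold, 0 of 7 stromal, 0 of 5 leukocyte and 0 of 3 endothelial genes were in the table, so they were not analysed here, and in bulk RNA fewer expressing cells and less RNA per cell cannot be told apart.

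With all 6 libraries, every LATS1/2-KO library lay below every parental library for 7 of the 8 genes, and the same held for 183 of the 414 listed genes (44.2%). Without parental replicate 1 it held for 8 of the 8 genes and for 189 of the 414 (45.7%). As the genes were selected for being lower, nothing is read from these counts about the genes as a group. Their median log2 fold change (LATS1/2-KO over parental, from edgeR) was -1.50 with all 6 libraries and -1.26 without parental replicate 1, beside -1.44 over the 177 and -1.39 over the 162 lower listed genes that had counts in both groups.

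**Figure D1:**
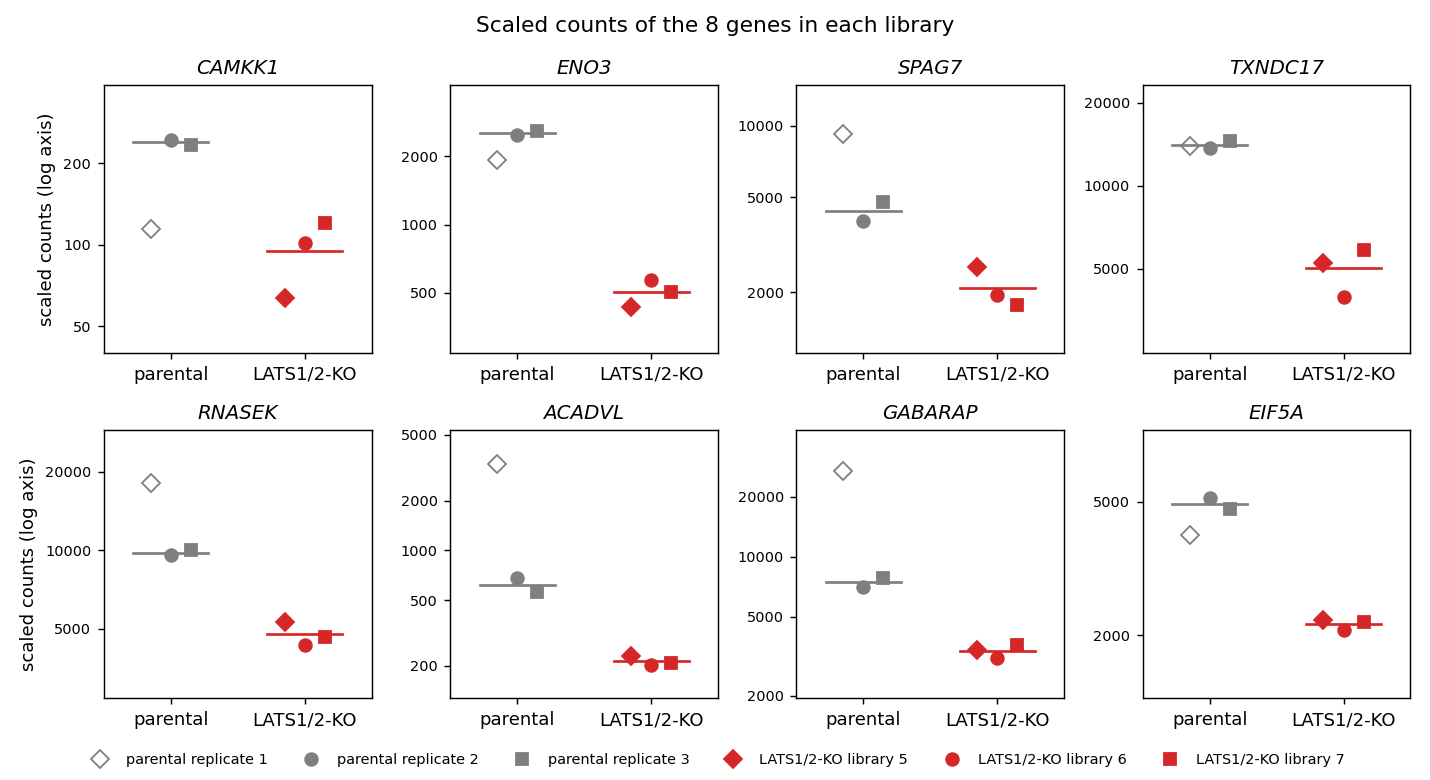
Scaled counts of each gene in the 6 libraries on a log axis, with parental libraries in gray and LATS1/2-KO libraries in red. Horizontal lines are the mean of parental replicates 2 and 3 and the mean of the 3 LATS1/2-KO libraries, and the open diamond is parental replicate 1, which lies 5.37 times above the mean of the other parental libraries for ACADVL and at 0.48 times that mean for CAMKK1.

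The metabolic enzymes showed the largest differences, *ENO3* without parental replicate 1 and *ACADVL* with all 6 libraries. *ENO3* (ENSG00000108515.18_7, 4948092 to 4957131, plus strand) encodes beta-enolase, which turns 2-phosphoglycerate into phosphoenolpyruvate in glycolysis. Its scaled counts were 1923.2, 2481.5 and 2572.6 in parental replicates 1, 2 and 3 and 433.9, 572.8 and 506.9 in LATS1/2-KO libraries 5, 6 and 7. All 3 knockout libraries lay far below all 3 parental libraries, whichever parental library was left out. The log2 fold change was -2.20 ± 0.19 (SE, n = 3 and 3) and -2.33 ± 0.14 without parental replicate 1, leaving 20.0% of the level of parental replicates 2 and 3. This was the lowest share among the 8 genes once parental replicate 1 was left out.

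*ACADVL* (ENSG00000072778.20_4, 7217125 to 7225273, plus strand) encodes very long-chain acyl-CoA dehydrogenase, which starts the mitochondrial oxidation of long fatty acids. Scaled counts were 3339.8, 682.9 and 559.8 in the parental replicates and 228.9, 203.3 and 209.0 in LATS1/2-KO libraries 5, 6 and 7. Groups did not overlap, but parental replicate 1 was 5.37 times the mean of the other parental libraries, so the parental coefficient of variation was 102.8% against 6.3% in the knockout. A log2 fold change of -2.84 ± 0.78 with all 6 libraries, the largest of the 8, became -1.54 ± 0.18 without parental replicate 1. The share left was 14.0% of the mean of all parental libraries and 34.4% of the mean of replicates 2 and 3.

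Other members of these pathways could be compared only where they were in the table. Of 20 glycolysis genes 2 were listed, *ENO3* and *ENO2*, the enolase of neurons, which lies on chromosome 12 and had a log2 fold change of -1.04 ± 0.25 with all 6 libraries and -1.11 ± 0.26 without parental replicate 1. Of 17 genes of mitochondrial fatty acid oxidation *ACADVL* alone was listed. The other genes of both lists were not analysed here.

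The translation factor and the disulfide reductase varied least between parental libraries. *EIF5A* (ENSG00000132507.18_4, 7306999 to 7312463, plus strand) encodes a factor that carries the modified lysine hypusine and helps ribosomes through stalled peptide bonds. It had scaled counts of 3976.4, 5123.8 and 4753.7 in the parental replicates and 2215.6, 2070.5 and 2184.8 in LATS1/2-KO libraries 5, 6 and 7. The knockout libraries were close to each other (coefficient of variation 3.5%) and below all parental libraries. Log2 fold changes were -1.10 ± 0.13 and, without parental replicate 1, -1.19 ± 0.11. The gene has a near-identical copy elsewhere in the genome, *EIF5AL1*, and how reads were split between the copies is not given in the sources used here.

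*TXNDC17* (ENSG00000129235.11_4, 6640758 to 6644541, plus strand) encodes a small thioredoxin-related protein that reduces disulfide bonds. Scaled counts of 13964.1, 13661.3 and 14487.9 in the parental replicates stood against 5263.9, 3950.0 and 5856.3 in LATS1/2-KO libraries 5, 6 and 7. Its parental coefficient of variation, 3.0%, was the lowest of the 8, and the groups were far apart. The log2 fold change was -1.48 ± 0.17 with all 6 libraries and -1.49 ± 0.19 without parental replicate 1. Among 16 thioredoxin-family genes, 2 others were listed and both were higher in the knockout. On the log2 scale *TXNRD2*, the mitochondrial thioredoxin reductase, was higher by 1.34 ± 0.18 with all 6 libraries and 1.31 ± 0.19 without parental replicate 1, and *NXN*, nucleoredoxin, by 1.24 ± 0.40 and 1.64 ± 0.33. Of 5 genes for eIF5A proteins and the enzymes that make hypusine, *EIF5A* alone was listed.

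Both genes of the endomembrane system had more reads in parental replicate 1 than in the other parental libraries. *GABARAP* (ENSG00000170296.10_6, 7240014 to 7242770, minus strand) encodes a ubiquitin-like protein of the ATG8 family that is joined to lipids of the autophagosome. Its scaled counts were 26973.7, 7065.4 and 7785.8 in the parental replicates and 3400.9, 3104.4 and 3592.9 in LATS1/2-KO libraries 5, 6 and 7. Parental replicate 1 was 3.63 times the mean of the other parental libraries, while the knockout libraries differed little from each other. The log2 fold change moved from -2.05 ± 0.58 to -1.14 ± 0.13 when it was left out. *GABARAP* alone was listed among 23 genes of ATG8 conjugation and autophagy.

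*RNASEK* (ENSG00000219200.6, 7012417 to 7014532, plus strand) encodes ribonuclease kappa, a small membrane protein that associates with the vacuolar proton pump. In parental replicates 1, 2 and 3 it measured 18025.2, 9535.0 and 10007.9 scaled counts, compared with 5310.1, 4317.0 and 4640.9 in LATS1/2-KO libraries 5, 6 and 7. Again parental replicate 1 was the high library, at 1.84 times the mean of the others, and the groups did not overlap. Its log2 fold change was -1.40 ± 0.29 and, without parental replicate 1, -1.04 ± 0.14, the smallest of the 8. Of 19 genes of the proton pump list *RNASEK* alone was in the table. The annotated read-through gene *RNASEK-C17orf49* shares 1898 bases of its span on the same strand, so reads in the shared part could be given to either, and its log2 fold change was -1.65 ± 0.28 with all 6 libraries and -1.54 ± 0.27 without parental replicate 1.

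*SPAG7* (ENSG00000091640.8_5, 4959226 to 4967872, minus strand) had scaled counts of 9252.9, 3977.4 and 4795.8 in the parental replicates and 2558.1, 1946.5 and 1777.2 in LATS1/2-KO libraries 5, 6 and 7. Parental replicate 1 was 2.11 times the mean of the other parental libraries, and all knockout libraries lay below all parental ones. Log2 fold changes were -1.52 ± 0.37 and, without parental replicate 1, -1.07 ± 0.19. *SPAG7* and *ENO3* are separated by 2094 bases. Of the level of parental replicates 2 and 3, 47.7% was left for *SPAG7* and 20.0% for *ENO3*. Of the mean of all 3 parental replicates, 34.8% and 21.7% were left.

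*CAMKK1* (ENSG00000004660.15_6, 3860315 to 3894891, minus strand) encodes a kinase that switches on calmodulin-dependent kinases I and IV when calcium rises. It was the least abundant of the genes, with 136, 245 and 189 reads in the parental replicates and 69, 41 and 81 reads in LATS1/2-KO libraries 5, 6 and 7. After scaling these were 114.1, 243.2 and 234.1 against 63.7, 101.7 and 120.1. Parental replicate 1 lay within the range of the knockout libraries, so *CAMKK1* was the one gene whose groups overlapped with all 6 libraries. The log2 fold change was -1.05 ± 0.43, or -1.33 ± 0.34 without parental replicate 1, and with libraries scaled by their column sums it was 0.01 with all 6 libraries, so that its direction depends on the scale. None of the other 11 genes of the CaMKK list was in the table.

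Expressed per length of annotated exon, the levels covered a wide range. Mean scaled counts per kilobase in parental replicates 2 and 3 ran, from high to low, 5461.9 for *RNASEK*, 3719.5 for *TXNDC17*, 3277.0 for *GABARAP*, 1754.5 for *EIF5A*, 1549.5 for *SPAG7*, 588.8 for *ENO3*, 127.7 for *ACADVL* and 32.1 for *CAMKK1*. The ranges of parental replicates 2 and 3 met only for *EIF5A* (1688.7 to 1820.2) and *SPAG7* (1404.9 to 1694.0), so those neighbours were not separated. In the LATS1/2-KO libraries *RNASEK* was again highest, at 2658.5 on average, but *GABARAP* (1370.0 to 1585.6) and *TXNDC17* (1043.9 to 1547.7) overlapped, as did *EIF5A* (735.5 to 787.1) and *SPAG7* (627.8 to 903.6). The order was otherwise kept, with *CAMKK1* lowest at 12.8. In parental replicate 1 the order differed, with *GABARAP* (11903.7) above *RNASEK* (10075.6), *SPAG7* (3268.4) above *EIF5A* (1412.6) and *ACADVL* (686.5) above *ENO3* (448.1).

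**Figure D2:**
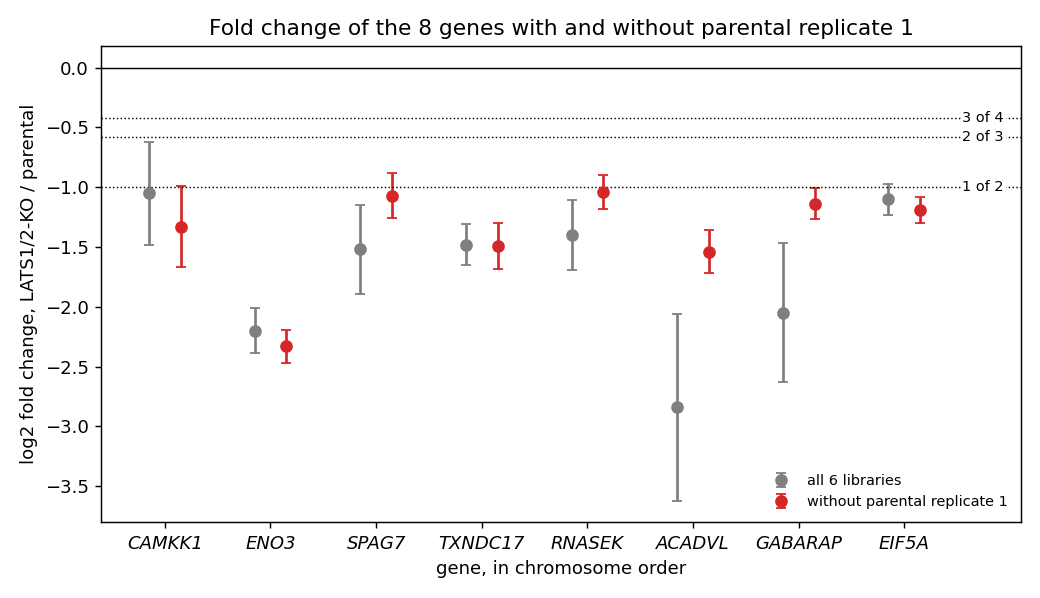
Log2 fold change of each gene with its standard error, in chromosome order, with all 6 libraries (gray) and without parental replicate 1 (red). Dotted lines mark the arithmetic of keeping 1 of 2, 2 of 3 or 3 of 4 copies (-1, -0.58 and -0.42), and without parental replicate 1 the values ran from -2.33 for ENO3 to -1.04 for RNASEK.

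The size of the difference was then set beside that of losing 1 copy. If RNA followed copy number, keeping 1 of 2 copies would leave 50% of the level (log2 -1), 2 of 3 copies 66.7% (-0.58) and 3 of 4 copies 75% (-0.42). Copy number was not measured in these libraries, and the number of copies of this stretch in parental KLE cells is not given in the sources used here. Without parental replicate 1 the mean share left ran from 20.0% for *ENO3* to 48.7% for *RNASEK*, with a median of 41.8%. *RNASEK* was 0.04 below -1 on the log2 scale, or 0.3 SE, and *SPAG7* 0.07 or 0.3 SE. *CAMKK1* was 1.0 SE, *GABARAP* 1.1 SE and *EIF5A* 1.8 SE below that line. For these 5 genes the distance from 50% was thus under 2 SE. *TXNDC17* was 0.49 (2.5 SE), *ACADVL* 0.54 (3.0 SE) and *ENO3* 1.33 (9.3 SE) below it. With all 6 libraries *ENO3*, at 6.5 SE, was again the farthest in SE, and *EIF5A* and *CAMKK1* were the nearest, at 0.7 and 0.1 SE. Each SE takes the library scales as known and leaves out the uncertainty of the scale between the groups. Scales by median of ratios, TMM and column sums raised all log2 fold changes by 0.52, 0.66 and 1.05. Distances in SE are thus no measure of how precisely a gene lies at or below 50%.

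A limit of the table bears directly on this comparison. Only genes called as changed more than 2-fold are in it, and the scale between the groups was placed from the gap that this limit leaves. No listed lower gene could therefore sit much above 50% of parental replicates 2 and 3 on average. Genes at 66.7% or 75% of the parental level, the sizes that loss of 1 of 3 or 1 of 4 copies would give, are outside what the table can show. The values just inside the limit were those of *RNASEK* (-1.04) and *SPAG7* (-1.07), and no gene just outside it was there to be read.

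**Figure D3:**
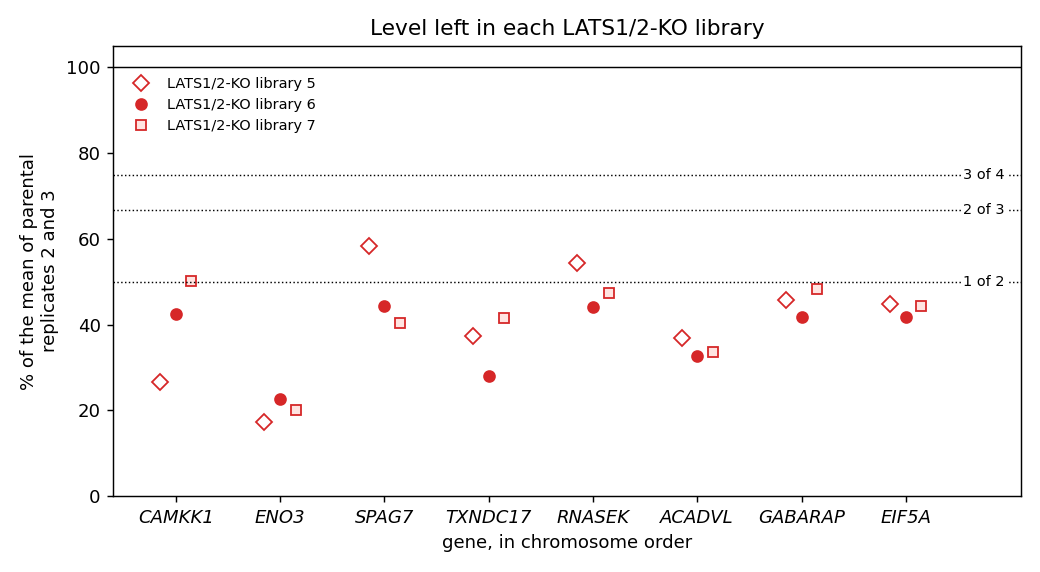
Scaled count of each gene in each LATS1/2-KO library as a percentage of the mean of parental replicates 2 and 3, on an axis from 0, with dotted lines at 50%, 66.7% and 75% for keeping 1 of 2, 2 of 3 and 3 of 4 copies. Of the 24 values 3 lie above 50% and 0 above 66.7%, and the ENO3 values are the lowest, between 17.2% and 22.7%.

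Single libraries spread around these means. Of 24 values (8 genes in 3 knockout libraries), 3 were above 50% of parental replicates 2 and 3, *SPAG7* (58.3%) and *RNASEK* (54.3%) in LATS1/2-KO library 5 and *CAMKK1* (50.3%) in library 7. *EIF5A* was tightest, at 44.9%, 41.9% and 44.3% in libraries 5, 6 and 7, followed by *ACADVL* at 36.9%, 32.8% and 33.7%. *CAMKK1* was widest, at 26.7%, 42.6% and 50.3%. *TXNDC17* ranged from 28.1% to 41.6% and *GABARAP* from 41.8% to 48.4%. The highest *ENO3* value, 22.7%, was thus below the lowest value of every other gene.

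Differences between the genes do not depend on any library scale, because reads of 2 genes can be divided within a library. Reads per 100 *RNASEK* reads are given for this, as a measure across libraries and not of the genes' levels, since they are not per length. *RNASEK* had the smallest difference of the 8 without parental replicate 1. That other genes are lower against it there thus follows from choosing it as the reference, and only the sizes are read. Its reads may also be shared with *RNASEK-C17orf49*. *ENO3* had 26.03 and 25.71 in parental replicates 2 and 3 and 8.17, 13.27 and 10.92 in LATS1/2-KO libraries 5, 6 and 7, and every knockout value was lower. In parental replicate 1, where *RNASEK* was high, it had 10.67, which lies within the knockout range. *SPAG7* kept its ratio, with 41.71 and 47.92 in parental replicates 2 and 3 and 48.17, 45.09 and 38.29 in the knockout. *GABARAP* had 74.1 and 77.8 against 64.05, 71.91 and 77.42, and *EIF5A* 53.74 and 47.5 against 41.72, 47.96 and 47.08, so that their groups overlapped. *ACADVL* had 7.16 and 5.59 against 4.31, 4.71 and 4.5, and *TXNDC17* 143.28 and 144.76 against 99.13, 91.5 and 126.19, with every knockout value lower. Parental replicate 1 had 77.47 for *TXNDC17*, below every knockout value, and 18.53 for *ACADVL*, above them. Against parental replicates 2 and 3, *ENO3*, *ACADVL* and *TXNDC17* were lower relative to *RNASEK* by -1.29, -0.49 and -0.46 on the log2 scale (-0.86, -1.01 and -0.16 against all 3 parental replicates), whereas *SPAG7* (-0.03), *GABARAP* (-0.10) and *EIF5A* (-0.15) had overlapping groups. So did *CAMKK1*, with 2.55 and 2.34 against 1.2, 2.35 and 2.59. Against all 3 parental replicates *SPAG7* was at -0.10, *GABARAP* at -0.42, *EIF5A* at 0.25 and *CAMKK1* at 0.32. In parental replicate 1 *SPAG7* (51.33) and *GABARAP* (149.64) lay above every knockout value, and *EIF5A* (22.06) and *CAMKK1* (0.63) below every one. Which genes kept their ratio to *RNASEK* thus depended on leaving out parental replicate 1. From the largest to the smallest, the log2 fold changes of the 8 genes spanned 1.78 with all 6 libraries and 1.29 without parental replicate 1, beside standard errors of 0.13 to 0.78 and 0.11 to 0.34.

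The 8 genes were then placed among their neighbours. Of 249 annotated protein-coding genes in the first 11 Mb of chromosome 17, 26 were in the table, and 1 listed processed transcript makes 27 listed genes. With all 6 libraries 24 of these 27 (88.9%) were lower in LATS1/2-KO cells, the 8 selected genes among them, and 16 of the other 19 (84.2%). Beside this, 191 of the 383 listed genes elsewhere (49.9%) and 15 of the 19 on the rest of chromosome 17 (78.9%) were lower. Without parental replicate 1, 22 (81.5%) were lower in LATS1/2-KO cells, the 8 genes among them, beside 168 of the 383 listed genes elsewhere (43.9%) and 15 of the 19 listed genes on the rest of chromosome 17 (78.9%). Leaving out the 8, which were selected for being lower, 14 of the other 19 were lower (73.7%). Between *CAMKK1* and *EIF5A* lie 86 annotated protein-coding genes. Of these 11 were listed and 10 were lower, but 8 of the 11 are the selected genes, with one of them at each end of the stretch. The other 3 were *PSMB6* and *RNASEK-C17orf49*, which were lower, and *SLC2A4*, which was not, so nothing is read from the 10. The 75 that are not in the table were not analysed here. Before *CAMKK1*, towards the end of the chromosome, 2 of 68 genes were listed, *NXN* and *SHPK*, and 0 were lower. *SHPK* had 0 reads in parental replicates 2 and 3. In parental replicate 1 its scaled count was 86.4, beside 85.9, 64.5 and 48.9 in LATS1/2-KO libraries 5, 6 and 7. The direction of *SHPK* thus depends on which parental library it is compared with. Where the lower genes begin is therefore not read from these 2 genes.

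**Figure D4:**
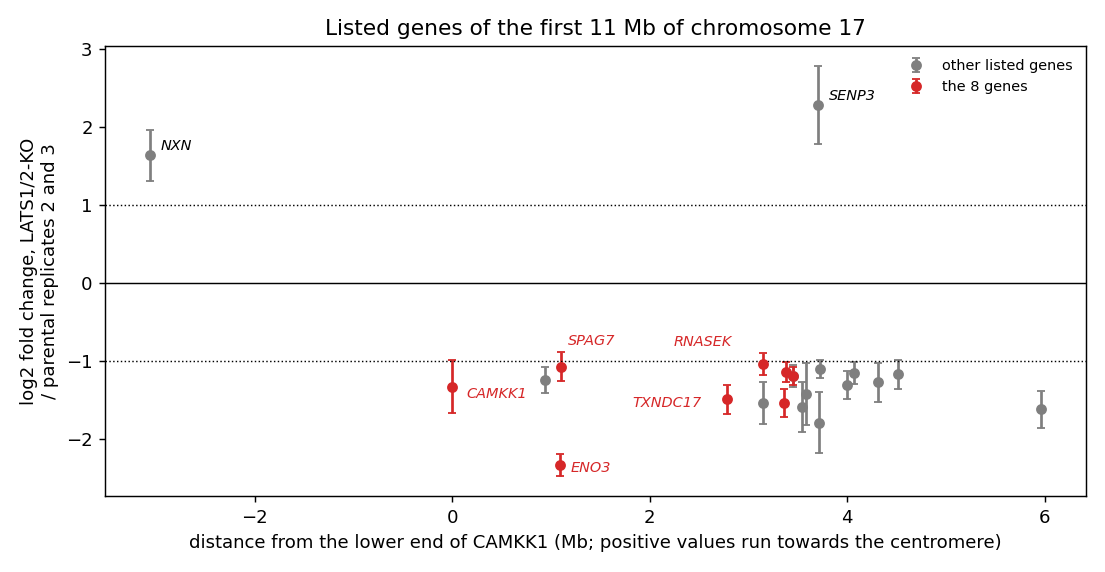
Log2 fold change without parental replicate 1 and its standard error, for the listed genes of the first 11 Mb of chromosome 17, against distance from CAMKK1 in Mb, with the 8 genes in red and the others in gray. Dotted lines mark a 2-fold change in either direction. Genes with no reads in the knockout libraries or in parental replicates 2 and 3 are left out, and NXN and SENP3 are the plotted genes above 0.

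Lower neighbours were of similar size. The 12 other lower genes with counts in both groups had log2 fold changes from -1.79 to -1.10, with a median of -1.28 and a standard deviation of 0.22. The 8 genes had -1.26 and 0.42, and all 162 lower listed genes -1.39 and 1.06. Over all 162 the values reached -7.88, but their quartiles were -1.80 and -1.18. The limit of the table bounds each of these sets near a 2-fold change. Quartiles of the 12 were -1.55 and -1.18. Among them were *PSMB6*, a catalytic proteasome subunit (-1.24 ± 0.17), *GPS2*, a subunit of a nuclear corepressor complex (-1.19 ± 0.14), *MPDU1*, which is needed for sugar transfer in the endoplasmic reticulum (-1.10 ± 0.12), *NAA38*, a subunit of an N-terminal acetyltransferase (-1.30 ± 0.18), *TRAPPC1*, a subunit of a vesicle tethering complex (-1.15 ± 0.14), and *RPL26*, a ribosomal protein (-1.17 ± 0.19). The largest of the 12 were AC016876.2 (-1.79 ± 0.39), *GLP2R* (-1.62 ± 0.24) and *TMEM256* (-1.59 ± 0.32). *ENO3*, at -2.33, lay below the range of these 12 without parental replicate 1, and *RNASEK* (-1.04) and *SPAG7* (-1.07) above it. With all 6 libraries the 12 ran from -2.45 (*CHRNB1*, a subunit of the muscle acetylcholine receptor) to -1.14, and *ENO3*, at -2.20, lay within that range. *ACADVL* (-2.84) then lay below it, and *CAMKK1* (-1.05) and *EIF5A* (-1.10) above it. The other 2 lower genes, *TMEM102* and *SENP3-EIF4A1*, had 0 reads in all knockout libraries and also in parental replicate 1, and the read-through gene *SENP3-EIF4A1* had 12532 and 73021 reads in parental replicates 2 and 3. Parental replicate 1 was over 1.5-fold above the other parental libraries for 3 of the 14 lower neighbours and for 4 of the 8 genes.

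Not every listed gene of the first 11 Mb of chromosome 17 was lower. *NXN* (1.64 ± 0.33) and *SENP3*, a SUMO protease (2.28 ± 0.50), were higher in LATS1/2-KO cells without parental replicate 1. With all 6 libraries *NXN* was at 1.24 ± 0.40 and *SENP3*, for which parental replicate 1 was 5.9 times the mean of the other parental libraries, at 0.88 ± 0.85. *SHPK*, *SLC2A4* and *TMEM256-PLSCR3* had 0 reads in parental replicates 2 and 3 and reads in at least 1 knockout library. All had reads in parental replicate 1. *SHPK* had 103 there, beside 93, 26 and 33 in LATS1/2-KO libraries 5, 6 and 7. *TMEM256-PLSCR3* had 739 there, beside 0, 133 and 0, and with all 6 libraries it was lower, at -0.93 ± 3.17. *SLC2A4*, the insulin-regulated glucose transporter, had 3008 reads in parental replicate 1 and none in the other parental libraries, beside 4, 4 and 11 in LATS1/2-KO libraries 5, 6 and 7, so its direction rests on that library. *SLC2A4* lies between *GABARAP* and *EIF5A*. *NXN*, *SHPK*, *SENP3* and *TMEM256-PLSCR3* lie outside the stretch from *CAMKK1* to *EIF5A*.

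Some of the 8 genes overlap others. *EIF5A* shares 1140 bases with *GPS2* on the opposite strand, *ENO3* 970 with *PFN1*, *TXNDC17* 1227 with *MED31*, and *ACADVL* 2717 with *DLG4*. *GABARAP* shares 2344 bases with a gene on its own strand, AC120057.2. Whether counting used the strand is not given in the sources used here, so reads from the shared parts cannot be assigned with certainty. *GPS2* was the only opposite-strand partner in the table.

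The listed genes with profiles most like the mean profile of the 8 were sought over all 6 libraries, as the distance between log2 profiles centred on their own means. *DDIT4*, a stress-induced inhibitor of mTORC1, came first at a distance of 0.26, and *TMEM107*, a protein of the cilium's transition zone (0.43), *HLA-C*, an antigen-presenting molecule (0.46), and *OSBPL5*, a lipid transfer protein (0.48), were also among the nearest 5. Of these *TMEM107* alone lies on chromosome 17, and *DDIT4*, *HLA-C* and *OSBPL5* are on chromosomes 10, 6 and 11. The 8 genes themselves were at distances of 0.45 (*RNASEK*) to 1.81 (*ACADVL*), and *ACADVL* ranked 135 of the 414 genes, so a profile like the mean was not particular to the stretch and several of the 8 did not have it.

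The authors' own normalized values treat that library otherwise. On their log2-like scale parental replicate 1 equalled the mean of replicates 2 and 3 to within 0.001 in 414 of 414 genes, so that *ACADVL* read 10.82, 10.89 and 10.76 and *GABARAP* 13.50, 13.43 and 13.58 in parental replicates 1, 2 and 3. The 5.37-fold and 3.63-fold excess of reads in parental replicate 1 is not visible there.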

How the data were processed

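RNA-seq was performed on 3 parental and 3 LATS1/2-KO KLE libraries. Per the labels, cDNA was primed with oligo-dT and sequenced as paired-end reads. The submitters' processing notes name cutadapt, HISAT2, StringTie, DESeq2 and the hg19 build, without versions. The authors deposited 1 table of 414 called genes, with whole-number counts per library that were not normalized. It also holds values that the authors' header calls tpm, which are on a log2-like scale and were used for the parental libraries only. The 3 normalized LATS1/2-KO columns match no single sample and were not used. The authors' fold changes and p-values in the table were not used either.

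The 8 genes, the gene lists and the motifs were chosen with earlier results of these data known. Lists comprised glycolysis, fatty acid oxidation, autophagy, eIF5A, thioredoxin, CaMKK and proton pump genes and markers of epithelial, stromal, leukocyte and endothelial cells (of the 6 epithelial markers *KRT19* alone was listed, at -1.09 ± 0.14 with all 6 libraries). Named genes were the 8, listed genes of the first 11 Mb of chromosome 17, the 5 nearest profiles (pseudocount 0.5, 1 of them not reported here), and listed genes of the lists.

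Within a group, the scale of a library was its median ratio to the geometric means of genes that had 50 or more counts throughout the group. Between groups, the listed genes were those called as changed more than 2-fold. Log2 ratios of LATS1/2-KO to parental replicates 2 and 3 left an empty interval from about -1 to 1 over 199 genes, and its midpoint was set to 0. Log2 fold changes and standard errors came from edgeR 4.0.16 (R 4.3.3, glmQLFit, no covariates) on the counts of all 414 genes, and the procedure was tested on simulated data. DESeq2 1.42.0, other scales, other count minimums and leaving out each library were alternatives. No p-value was computed for the 8 genes. No pair of replicate libraries agreed within sampling noise (chi-square per degree of freedom of at least 43.82), so each was kept as 1 sample. The value was 1049.89 for parental replicates 2 and 3, beside 870.6 for replicates 1 and 2 and 2036.94 for replicates 1 and 3. Identifiers were matched to GENCODE version 29 without their version (410 of 414 found), and positions are on GRCh38 rather than hg19. Promoter sequences are those of RefSeq, GRCh38.p14. The number of libraries limits precision, as does their unknown full depth.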

Additional observations from a re-analysis of the deposited data

How the results depend on the processing

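The median log2 fold change of the 8 genes, -1.50, was -1.26 to -1.68 when each library was left out in turn (-1.26 without parental replicate 1), and -0.97 with median-of-ratios scales, -0.82 with TMM and -0.45 with column sums over the listed genes. These scales raised all log2 fold changes by 0.52, 0.66 and 1.05, since a list of changed genes has no unchanged majority to set them. With column sums 4 of the 8 genes kept non-overlapping groups, against 7, and *CAMKK1* was at 0.01. Of 88 single-gene values under the alternatives, 87 were below 0. The genes were selected for being lower in these same libraries, so nothing is read from that count. *ACADVL* ranged from -3.30 to -1.54 and *GABARAP* from -2.41 to -1.14 when each library was left out, and for both the smallest value was that without parental replicate 1. DESeq2 gave a median of -1.50. The number of lower listed genes in the region was 20 to 24, and the range among the 8 genes 1.29 to 2.32. No paired analysis was possible because the LATS1/2-KO columns carry numbers that match no replicate label. *CAMKK1* had the fewest reads (41 to 245) and, without parental replicate 1, the largest standard error of the 8, while with all 6 libraries that of *ACADVL* was largest. The table cannot show genes that the authors did not call as changed more than 2-fold. With all 6 libraries some listed genes were inside 2-fold, such as *SENP3* at 0.88.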
